A study of Mus musculus with 12 samples.

Results

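The genes described here encode the nuclear subunits of the mitochondrial respiratory chain and of ATP synthase, together with a few assembly factors that share their names. They were taken by name, as every probe set with a single gene symbol that starts with Nduf, Uqcr, Atp5 or Cox followed by a digit of 4 to 8, or that is Cyc1, Cycs, Sdha, Sdhb, Sdhc or Sdhd. This gave 160 probe sets of 86 genes, among 22690 probe sets on the array, of which 20393 carry exactly 1 symbol. Genes were assigned to complexes by name alone, with Ndufa4 in complex I, and membership of the assembled complex was not checked. By this rule complex I (NADH dehydrogenase) has 68 probe sets of 34 genes and its assembly factors named Ndufaf have 6 of 5 genes. Complex II (succinate dehydrogenase) has 7 of 4 genes, complex III (cytochrome bc1) 16 of 9 genes, cytochrome c 3 of 1 gene, complex IV (cytochrome c oxidase) 32 of 16 genes, and complex V (ATP synthase) 28 of 17 genes.

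RNA of whole small intestine was measured on 12 mouse 430A arrays, with 3 biological replicates in each of 4 groups: PPARα-null mice (129S4/SvJae) fasted for 24 h, wild-type mice (129S1/SvImJ) fasted for 24 h, PPARα-null mice with free access to feed, and wild-type mice with free access to feed. The strain labels of both fed groups read only 129Sv, and the substrains are those of the design text. All mice were male and 14 weeks old. The design text names the AIN93M diet and the methods of the study name laboratory chow, and pooling of mice within a replicate is not stated in what was read here, so p-values measure only the spread between these samples. The null allele is carried in all cells, and the genotypes also differ in substrain, so that loss of PPARα and substrain cannot be told apart. The labels of the wild-type fasted arrays conflict, since their titles and strains say wild type and their descriptions say knockout. The arrays were grouped by title. The Ppara probe set had 13.23, 11.66 and 10.96 in PPARα-null fasted mice, 58.72, 48.05 and 30.81 in wild-type fasted mice, 6.84, 7.5 and 7.35 in PPARα-null fed mice and 19.87, 33.95 and 35.92 in wild-type fed mice, which follows the titles.

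The respiratory chain carries electrons from NADH, through complex I, and from succinate, through complex II, to ubiquinone, and on through complex III, cytochrome c and complex IV to oxygen. Complexes I, III and IV pump protons across the inner mitochondrial membrane, and ATP synthase uses the gradient to make ATP. Most subunits are encoded in the nucleus and a small set in mitochondrial DNA. The enterocytes that line the small intestine are rich in mitochondria and oxidise glutamine, glucose and, during fasting, ketone bodies and fatty acids. PPARα is a nuclear receptor that is activated by fatty acids and binds, with RXR, to a direct repeat called DR1. Transcription factors known to act on respiratory chain genes include NRF1, the ETS factor GABP, the estrogen-related receptors (ERR) and YY1.

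The promoters of a few members that carry the results below are shown here, because these genes either fell upon fasting in both genotypes (Ndufs8, Ndufc1, Ndufb2), differed between the genotypes (Uqcr10) or are a textbook target of NRF1 (Cycs). Each window holds 250 bases before and 50 bases after the RefSeq start of the gene (GRCm38.p6), in the direction of the gene, and 71 of the 86 genes had such a window. Capitals mark matches, on either strand, to any of 5 core motifs: GCGCATGC (NRF1), CCGGAAG (ETS), TCAAGGTCA (ERR), AANATGGCG (YY1) and AGGTCA repeated after 1 base (DR1). The windows lie at chr19:3912725-3913024 (minus strand) for Ndufs8, chr3:51408906-51409205 (minus) for Ndufc1, chr6:39592315-39592614 (plus) for Ndufb2, chr11:4704295-4704594 (minus) for Uqcr10 and chr6:50566520-50566819 (minus) for Cycs.
Ndufs8: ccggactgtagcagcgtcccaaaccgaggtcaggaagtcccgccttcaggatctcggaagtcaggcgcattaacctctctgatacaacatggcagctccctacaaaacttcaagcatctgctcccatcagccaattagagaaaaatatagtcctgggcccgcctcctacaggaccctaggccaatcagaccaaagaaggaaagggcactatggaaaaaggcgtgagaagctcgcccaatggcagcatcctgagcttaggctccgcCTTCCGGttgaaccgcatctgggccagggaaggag
Ndufc1: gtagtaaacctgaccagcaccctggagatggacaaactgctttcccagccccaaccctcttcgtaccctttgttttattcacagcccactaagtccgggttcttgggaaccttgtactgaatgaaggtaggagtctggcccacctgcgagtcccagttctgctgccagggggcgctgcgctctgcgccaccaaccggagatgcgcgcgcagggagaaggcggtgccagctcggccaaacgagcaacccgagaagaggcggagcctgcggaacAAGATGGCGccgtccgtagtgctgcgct
Ndufb2: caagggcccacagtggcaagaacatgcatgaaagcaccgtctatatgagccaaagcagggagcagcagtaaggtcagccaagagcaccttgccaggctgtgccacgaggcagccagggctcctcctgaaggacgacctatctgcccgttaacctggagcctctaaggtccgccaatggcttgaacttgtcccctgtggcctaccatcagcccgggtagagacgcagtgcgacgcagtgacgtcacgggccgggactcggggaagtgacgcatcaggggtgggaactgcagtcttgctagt
Uqcr10: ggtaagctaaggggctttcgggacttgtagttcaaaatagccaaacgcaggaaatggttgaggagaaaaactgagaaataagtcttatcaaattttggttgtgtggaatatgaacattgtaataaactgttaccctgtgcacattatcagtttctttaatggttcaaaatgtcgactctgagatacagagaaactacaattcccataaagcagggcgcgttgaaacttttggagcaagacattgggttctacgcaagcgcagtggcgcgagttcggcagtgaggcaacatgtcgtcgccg
Cycs: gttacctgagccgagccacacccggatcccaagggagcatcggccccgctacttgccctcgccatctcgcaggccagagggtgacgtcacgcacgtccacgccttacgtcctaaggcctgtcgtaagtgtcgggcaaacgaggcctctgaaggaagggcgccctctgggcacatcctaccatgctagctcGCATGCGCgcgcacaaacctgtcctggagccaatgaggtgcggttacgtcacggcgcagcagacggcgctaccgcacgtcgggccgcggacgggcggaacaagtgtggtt

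In these windows Ndufs8 has an ETS core on the strand opposite to the gene, which begins 15 bases after the start site, and Ndufc1 has a YY1 core that begins 22 bases after it. Cycs has an NRF1 core that begins 60 bases before its start site, and the windows of Ndufb2 and Uqcr10 hold none of the 5 motifs. Over the 71 member genes with a window, 12 (16.9%) held the NRF1 core, 17 (23.9%) the ETS core, 2 (2.82%) the ERR core, 7 (9.86%) the YY1 core and 0 the DR1 repeat. Over the first window of all 27025 genes of the table the shares were 2.80%, 9.12%, 0.407%, 2.51% and 0.0444% in the same order. Matches of different motifs overlapped in 0 of the member windows. Among the 14 member genes with a window that fell upon fasting in either genotype, 1 held the NRF1 core, 3 the ETS core and 3 the YY1 core, against 10, 14 and 4 of the 50 genes that were tested and not called. The ERR cores were in Sdhd and Atp5g3. A match is a run of letters and says nothing of binding.

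A few facts of the whole series bear on every value below. Intensities are GCRMA values on a linear scale, and the fasted arrays as a set had lower values than the fed arrays, by 0.32 on the log2 scale (the median, over 9370 probe sets averaging above 20 in the wild-type fed group, of the change averaged over both genotypes). Both sets were written with different numbers of decimals and appear to have been normalized apart, so that feeding state and processing set cannot be told apart. Changes upon fasting are therefore given relative to this common shift (as deposited, each is lower by 0.32), whereas comparisons between genotypes are free of it. Within groups, arrays correlated at 0.991 to 0.997. Defining markers of enterocytes were present in each group (13 probe sets, summed intensity 99970 to 103500 in PPARα-null fasted, 89090 to 92740 in wild-type fasted, 99170 to 102400 in PPARα-null fed and 97040 to 100400 in wild-type fed mice). Exocrine pancreas genes (19 probe sets) summed to 34610, 1162 and 36140 in the PPARα-null fasted replicates 1, 2 and 3 and to 14770 to 30920 in wild-type fasted mice, against 1230 to 1697 in PPARα-null fed and 1152 to 2999 in wild-type fed mice.

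Of the 160 probe sets, 134 (77 genes) averaged above 20 in the wild-type fed group and were tested upon fasting. The other 26 lay between 1.92 and 26.8 on every array. They leave 9 genes without a tested probe set: Ndufb1, Ndufaf5, Ndufaf7, Cox4i2, Cox6a2, Cox6b2, Cox7c, Cox8b and Cox8c. Cox6a2 and Cox8b are the heart and skeletal muscle isoforms of their subunits, Cox4i2 the isoform best known from lung, and Cox6b2 and Cox8c are testis isoforms. Their ubiquitous counterparts Cox4i1, Cox6a1, Cox6b1 and Cox8a were all tested. Cox7c, a subunit found in all tissues, was listed at 6.40 to 13.5 by its 2 probe sets.

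Upon fasting, members of the respiratory chain fell in part and almost none rose. In PPARα-null mice 0 member probe sets rose and 22 of 134 fell (14 genes, 16.4%), and in wild-type mice 1 rose and 9 fell (7 genes called, 7.46%). A call needs p below 0.01 by limma, before adjustment, and more than 1.3-fold. Over all 9370 probe sets tested, 42.2% were called in PPARα-null mice (18.6% rises and 23.6% falls) and 17.5% in wild-type mice (10.0% rises and 7.43% falls). The members' counts of falls thus lie near or below the background. Respiratory chain genes are strongly expressed, so the share among probe sets averaging above 1000 in the wild-type fed group is given too. There 7 of 83 member probe sets (8.43%) were called in PPARα-null mice against 23.1% of all, and 2 of 83 (2.41%) in wild-type mice against 8.82% of all. In this mixed tissue fewer cells of a type and less RNA per cell cannot be told apart. Probe sets of 1 gene share their transcript, and 39 member genes had several tested.

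**Figure D1:**
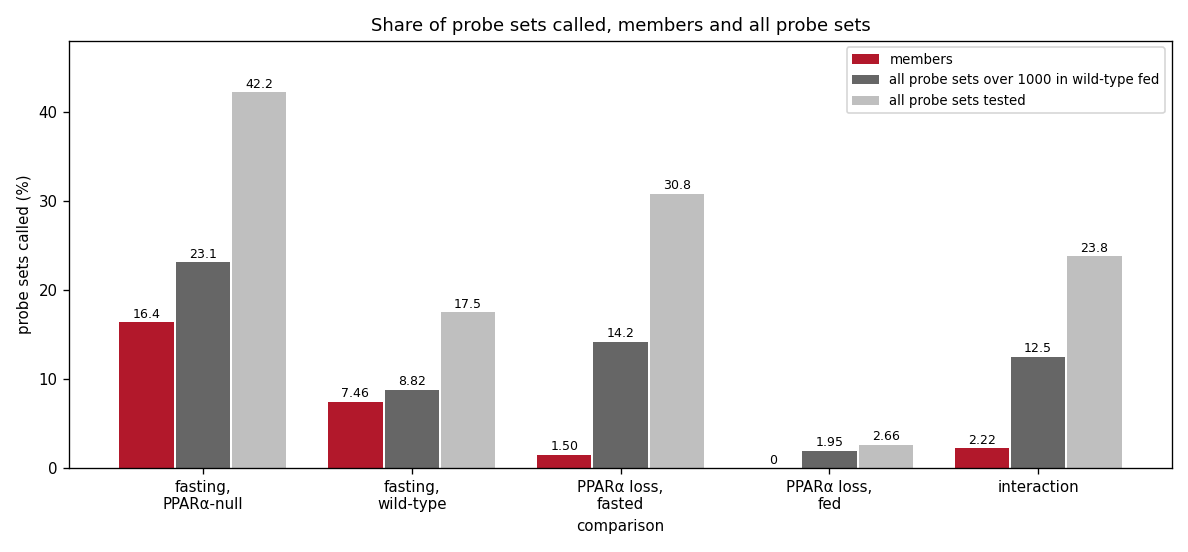
Share of probe sets called (%, vertical axis) in the 5 comparisons (horizontal axis) for the member probe sets (red), all probe sets averaging above 1000 in the wild-type fed group (dark grey) and all probe sets tested (light grey). The members stand at 16.4%, 7.46%, 1.5%, 0% and 2.22%, below both sets of all probe sets in each comparison.

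The median change of the members upon fasting was −0.10 in PPARα-null and −0.10 in wild-type mice, against −0.02 and 0.03 over all probe sets tested and 0.05 and 0.07 over those with a mean over 1000. The members' median was below 0 under each of 5 scalings, between −0.41 and −0.04 in PPARα-null and between −0.41 and −0.10 in wild-type mice. The −0.41 is that as deposited, where the common drop puts all probe sets at −0.33 and −0.28, so its sign says little. After quantile normalization members stood at −0.19 and −0.18, against −0.04 and −0.03 over all. With each array centred on its median they stood at −0.04 and −0.12, against 0.05 and 0.01 over all. By complex the medians in PPARα-null and wild-type mice were −0.13 and −0.11 for complex I, −0.66 and −0.35 for the assembly factors of complex I, −0.12 and −0.12 for complex V and −0.30 and −0.29 for cytochrome c. They were nearer to 0 for complex II (0.05 and −0.01), complex III (−0.05 and −0.03) and complex IV (0.04 and −0.04). In PPARα-null mice the sign of the medians of complexes II, III and IV turned with the scaling (−0.27 to 0.11, −0.37 to 0.01 and −0.28 to 0.10). The low ends are again those as deposited. Called probe sets in PPARα-null and wild-type mice numbered 15 and 6 of 59 for complex I, 2 and 0 of 4 for its assembly factors, 0 and 0 of 7 for complex II, 2 and 1 of 13 for complex III, 0 and 0 of 3 for cytochrome c, 1 and 1 of 22 for complex IV, and 2 and 2 of 26 for complex V. The share of complex I probe sets that fell in PPARα-null mice, 25.4%, lies near the 23.6% of all probe sets.

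**Figure D2:**
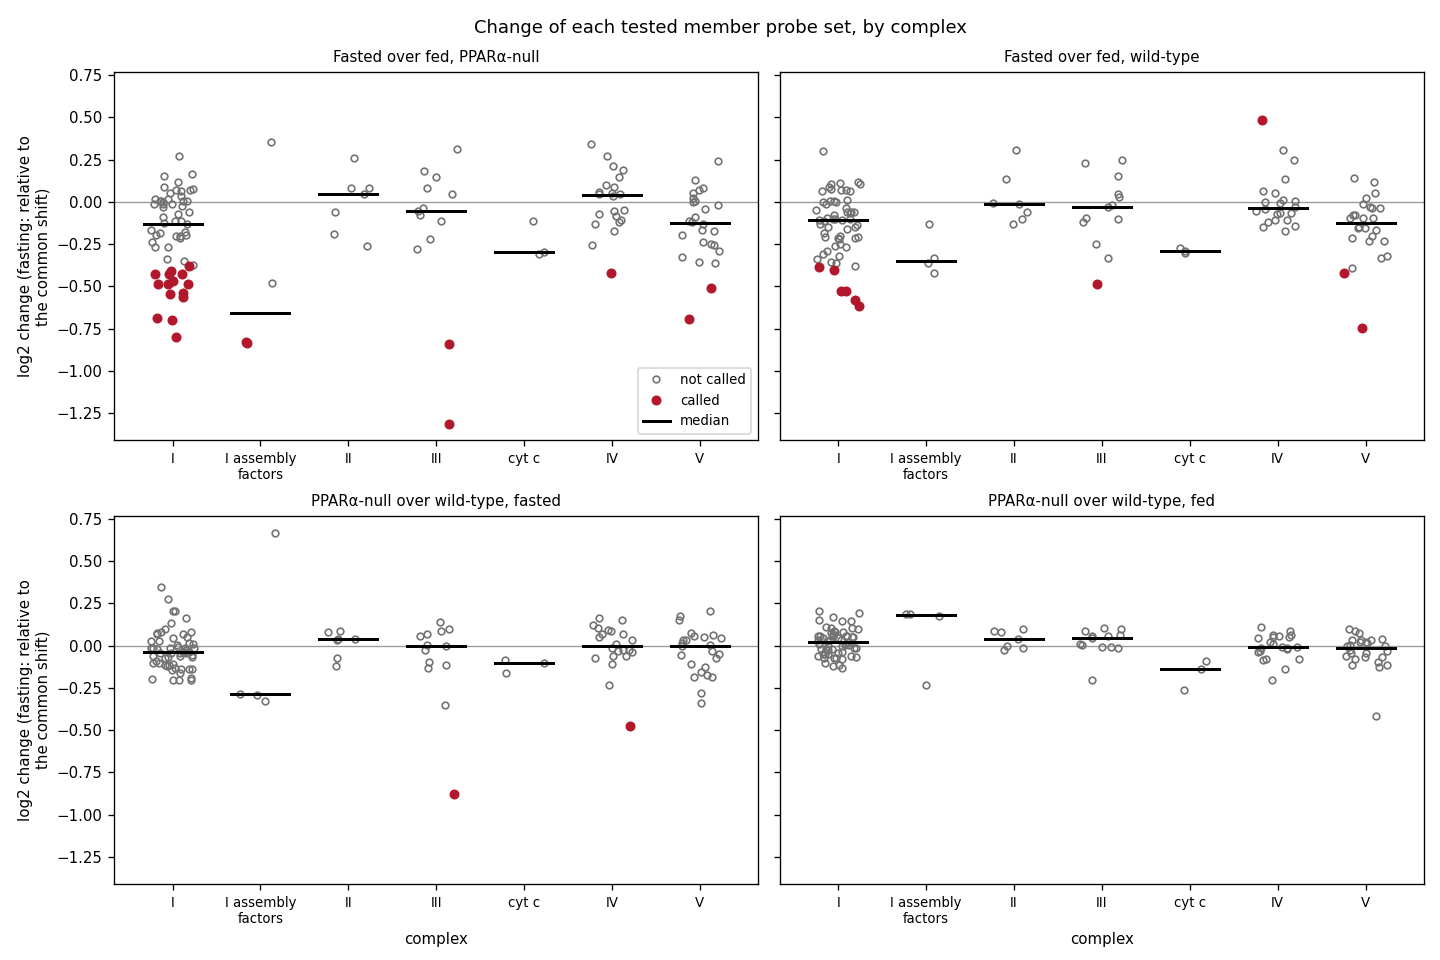
Log2 change (vertical axis) of each tested member probe set by complex (horizontal axis) upon fasting in PPARα-null and wild-type mice (upper panels, relative to the common shift) and upon loss of PPARα in fasted and fed mice (lower panels). Red points were called, open points were not, and bars are medians. Called points lie mostly in complex I in the upper panels, and 2 and 0 points are called in the lower panels.

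Within complex I, Ndufs8, an iron-sulphur subunit of the core that passes electrons towards ubiquinone, fell in all 5 of its tested probe sets in PPARα-null mice and in 2 of them in wild-type mice. The probe set with the largest fall in wild-type mice had 493.6, 454.4 and 430.3 in PPARα-null fasted against 877.3, 926.0 and 955.7 in PPARα-null fed mice. It had 449.2, 524.9 and 445.6 in wild-type fasted against 712.6, 1012 and 1009 in wild-type fed mice. Fasted and fed arrays do not overlap in either genotype, also relative to the common shift. As deposited, 120 of 134 member probe sets in PPARα-null and 118 in wild-type mice were lower when fasted without overlap. Relative to the shift 56 and 31 were, and the share over all probe sets was not counted. As deposited the change was below 0 for 7079 and 7809 of all 9370 probe sets. The counts without overlap are therefore not read as a result about the members. Where nothing else is said, overlap is judged as deposited. The log2 change was −0.69 ± 0.13 (SE, limma adjusted p = 0.000633) in PPARα-null and −0.61 ± 0.13 (adjusted p = 0.00528) in wild-type mice. In PPARα-null mice the 4 other tested Ndufs8 probe sets fell by 0.43 to 0.70.

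Ndufs7, the neighbouring core subunit that carries the last iron-sulphur cluster before ubiquinone, had a called fall in 1 of its 2 probe sets, and only in PPARα-null mice. That probe set had 586.8, 604.1 and 675.6 in PPARα-null fasted against 926.1, 1037 and 1059 in PPARα-null fed mice. Its change of −0.38 ± 0.11 (adjusted p = 0.00943) lies at the fold limit, and the call was lost under 11 of 28 alternatives. The other core subunits tested, Ndufs1, Ndufs3, Ndufv1 and Ndufv2, were called in neither genotype. Ndufv1, which binds NADH and the flavin that takes its electrons, had in 1 of 3 probe sets 710.3, 733.7 and 715.0 in PPARα-null fasted, 709.0, 745.7 and 725.4 in wild-type fasted, 945.3, 986.5 and 976.8 in PPARα-null fed and 796.9, 1004 and 1018 in wild-type fed mice. As deposited, and thus with the common drop, the PPARα-null fasted arrays are lower than the fed ones here, as are the wild-type fasted ones. The change was not beyond the limits of a call.

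Among the accessory subunits, Ndufb2 and Ndufc1, both of the membrane arm, fell in both of their probe sets in both genotypes. The Ndufb2 probe set that fell most had 276.4, 287.4 and 296.6 in PPARα-null fasted against 619.7, 616.1 and 622.8 in PPARα-null fed mice. In wild-type mice it had 300.1, 319.7 and 268.8 when fasted against 455.2, 600.6 and 610.5 when fed. The groups do not overlap, and wild-type fed replicate 1 was the lowest of the fed arrays. The log2 change was −0.80 ± 0.11 (adjusted p = 6.46e-05) in PPARα-null and −0.58 ± 0.11 (adjusted p = 0.0031) in wild-type mice.

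The Ndufc1 probe set that fell most had 307.1, 298.1 and 322.8 in PPARα-null fasted against 522.3, 572.9 and 583.8 in PPARα-null fed mice. It had 327.1, 384.5 and 313.1 in wild-type fasted against 494.9, 699.4 and 652.8 in wild-type fed mice. Again no fasted array reached a fed one. The changes were −0.54 ± 0.12 (adjusted p = 0.00265) in PPARα-null and −0.52 ± 0.12 (adjusted p = 0.00987) in wild-type mice. The second probe sets of Ndufb2 and Ndufc1 fell by 0.41 and 0.42 in PPARα-null and by 0.38 and 0.40 in wild-type mice, and the calls of the second Ndufc1 probe set were lost under 7 of 29 and 8 of 29 alternatives.

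Ndufa13, an accessory subunit also known as GRIM-19, was called only in PPARα-null mice, with 663.4, 651.6 and 696.5 in fasted against 1273, 1163 and 1215 in fed animals (−0.54 ± 0.08, adjusted p = 0.000143). In wild-type mice it had 666.2, 765.0 and 745.3 when fasted and 1053, 1175 and 1157 when fed. Ndufa3, an accessory subunit of the membrane arm, fell in both probe sets in PPARα-null mice, by 0.49 and 0.56, as did Ndufs5 by 0.43 and 1 of 2 probe sets of Ndufa5 by 0.47. The difference in response between the genotypes (the interaction) was not called for any of these 4 genes, so a call in PPARα-null mice alone does not show that the genotypes respond apart. Ndufa1, an accessory subunit named here for its high mean intensity, had 2109 to 2282 in PPARα-null fasted, 2118 to 2431 in wild-type fasted, 2722 to 2756 in PPARα-null fed and 2733 to 2836 in wild-type fed mice, and was not called.

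The complex I assembly factors gave low values. Ndufaf1, which helps to build the membrane arm, had 17.6, 27.9 and 23.2 in PPARα-null fasted against 54.2, 50.4 and 45.6 in PPARα-null fed mice (−0.84 ± 0.14, adjusted p = 0.000276). Ndufaf3 had 15.9, 20.3 and 21.3 in PPARα-null fasted against 42.7, 48.7 and 35.6 in PPARα-null fed mice (−0.83 ± 0.16, adjusted p = 0.000712). Both fell without overlap, to levels near the limit of 20. In wild-type mice Ndufaf1 had 26.9 to 30.4 when fasted and 42.6 to 47.5 when fed, and was not called. Ndufaf4, with 2 probe sets, was called in neither genotype.

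In complex II no subunit was called. Sdha, the flavoprotein that oxidises succinate, had in 1 of 2 probe sets 1105, 1090 and 992.1 in PPARα-null fasted, 1115, 1093 and 1136 in wild-type fasted, 1258, 1257 and 1230 in PPARα-null fed and 1106, 1332 and 1367 in wild-type fed mice. Sdhb, its iron-sulphur partner, had 1619 to 1902 in PPARα-null fasted, 1649 to 1764 in wild-type fasted, 2198 to 2372 in PPARα-null fed and 1910 to 2403 in wild-type fed mice. As deposited, and thus with the common drop, the fasted arrays were the lower ones for Sdhb, and for Sdha the wild-type groups overlap. The membrane anchors Sdhc and Sdhd, with 4 probe sets, were likewise not called. Of the 7 probe sets, 5 in PPARα-null and 6 in wild-type mice had a 95% interval of the change that stayed within 1.3-fold.

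In complex III, Uqcr10 alone was called. It encodes a small accessory subunit of the bc1 complex and had 3 probe sets that did not move together. In the first of them the values were 87.3, 105.3 and 102.5 in PPARα-null fasted, 190.2, 174.5 and 176.8 in wild-type fasted, 280.5, 287.5 and 343.1 in PPARα-null fed and 248.2, 282.8 and 319.8 in wild-type fed mice. The PPARα-null fasted arrays lie below all others. The change upon fasting was −1.31 ± 0.12 in PPARα-null mice (adjusted p = 1.56e-06), the largest fall of any member, and −0.33 in wild-type mice, where it was not called. The second fell by 0.84 in PPARα-null mice and by 0.48 in wild-type mice, the last a call lost under 7 of 27 alternatives. In the third the values were 502.0, 459.8 and 471.4 in PPARα-null fasted, 404.9, 435.8 and 459.6 in wild-type fasted, 402.4, 469.9 and 578.9 in PPARα-null fed and 434.5, 683.6 and 562.3 in wild-type fed mice. In this probe set fasted and fed arrays overlap in both genotypes and no contrast was called. Its change relative to the shift was 0.31 ± 0.16 (adjusted p = 0.105) in PPARα-null mice, opposite in sign to the first, and −0.03 in wild-type mice. The probe sets thus disagree, and the fall of Uqcr10 rests on 2 of 3. Which transcript ends each probe set reads was not analysed here.

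The other complex III genes were not called. Cyc1, the cytochrome c1 that hands electrons to cytochrome c, had 2343, 2402 and 2230 in PPARα-null fasted, 2168, 2387 and 2430 in wild-type fasted, 3070, 3171 and 3130 in PPARα-null fed and 2759, 3242 and 3324 in wild-type fed mice. The Rieske iron-sulphur protein Uqcrfs1 had 1500 to 1648 in PPARα-null fasted, 1542 to 1607 in wild-type fasted, 1988 to 2140 in PPARα-null fed and 1898 to 2266 in wild-type fed mice. In both genes the fasted arrays lie below the fed ones as deposited. Uqcrb, an accessory subunit named here for its high mean intensity, had 3239 to 3636 in PPARα-null fasted, 3154 to 3377 in wild-type fasted, 4223 to 4672 in PPARα-null fed and 4090 to 4806 in wild-type fed mice.

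Cycs, the cytochrome c that carries electrons from complex III to complex IV, was called by none of its 3 probe sets. The first had 1737, 1830 and 1648 in PPARα-null fasted, 1715, 1943 and 1938 in wild-type fasted, 2444, 2628 and 2991 in PPARα-null fed and 2565, 2995 and 3036 in wild-type fed mice. The fasted and fed arrays do not overlap. The 3 changes were −0.31, −0.30 and −0.11 in PPARα-null mice and −0.30, −0.27 and −0.29 in wild-type mice, short of the fold of 1.3 (0.38 on the log2 scale). In PPARα-null mice the third probe set changed sign without replicates 1 and 3 of the fasted group (0.13), which leaves 1 array there.

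In complex IV, 10 genes were tested and the common isoforms of each subunit were not called. Cox4i1, the regulatory subunit, had 3252, 3228 and 3302 in PPARα-null fasted, 3183, 3500 and 3292 in wild-type fasted, 3870, 4009 and 3921 in PPARα-null fed and 3592, 3805 and 3899 in wild-type fed mice. Cox6a1, the common form of subunit 6a, had in 1 probe set 5936 to 5975 in PPARα-null fasted, 5303 to 5851 in wild-type fasted, 6563 to 6852 in PPARα-null fed and 6569 to 6799 in wild-type fed mice. For both the step between fed and fasted arrays was less than the common shift. Cox6b1, Cox7a2 and Cox8a, the common forms of subunits that also have muscle or testis isoforms, were not called either.

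Cox7a1, the isoform of subunit 7a that is known from heart and skeletal muscle, was 1 of 2 genes of complex IV with a call. It had 291.0, 295.0 and 301.9 in PPARα-null fasted, 414.9, 448.7 and 374.7 in wild-type fasted, 441.9, 552.8 and 490.8 in PPARα-null fed and 490.2, 476.8 and 500.5 in wild-type fed mice. The PPARα-null fasted arrays lie apart below the 9 others. It fell upon fasting in PPARα-null mice (−0.42 ± 0.10, adjusted p = 0.00239), a call lost under 3 of 29 alternatives. These were each array centred on its median, without PPARα-null fed replicate 2, and without PPARα-null fasted replicates 1 and 3, which leaves 1 array there. Cox7a1 had 0.07 in wild-type mice, where as deposited the value is −0.25. Markers of striated muscle were near background, with 0 of 12 probe sets over 20 in either fasted group and 1 of 12 in either fed group. Smooth muscle markers (12 probe sets) summed, as deposited, to 3682 to 3929 in PPARα-null fasted, 2308 to 3958 in wild-type fasted, 5050 to 5487 in PPARα-null fed and 5364 to 6437 in wild-type fed mice. Relative to the common shift 0 of 8 tested fell in PPARα-null and 5 in wild-type mice, beside falls in 23.6% and 7.43% of all probe sets. Adipocyte markers (9 probe sets) summed to 1883 to 2395 in PPARα-null fasted, 977.1 to 1196 in wild-type fasted, 531.6 to 757.2 in PPARα-null fed and 712.9 to 894.6 in wild-type fed mice. Most of this sum comes from 2 probe sets of Fabp4, a fatty acid carrier of adipocytes and macrophages, whereas Adipoq, the defining adipocyte marker, averaged 4.89, 8.22, 6.93 and 8.70 in the same order of groups, below the limit of 20. The part of these cell types in the values of Cox7a1 was not tested.

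Cox7a2l, a relative of subunit 7a that joins complexes III and IV in supercomplexes, was the single member with a called rise. The called probe set, 1 of 3, had 503.5, 408.3 and 484.6 in PPARα-null fasted, 455.6, 429.2 and 538.7 in wild-type fasted, 477.7, 420.5 and 467.2 in PPARα-null fed and 378.5, 447.8 and 439.4 in wild-type fed mice. As deposited, all groups overlap. The change in wild-type mice was 0.48 ± 0.11 relative to the common shift (adjusted p = 0.00987) and 0.17 as deposited, without a call, so the rise rests on the shift. Its 2 other probe sets were not called.

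**Figure D3:**
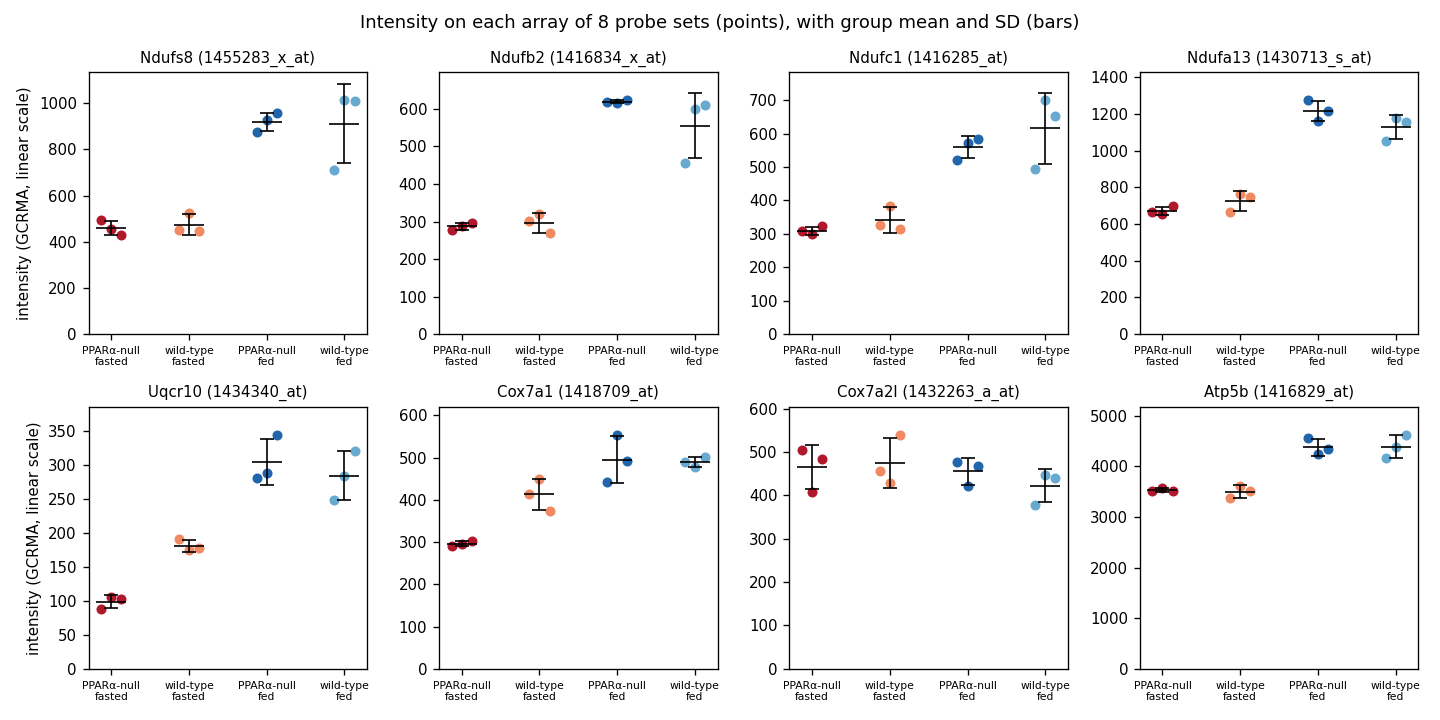
Intensity (vertical axis, GCRMA, linear scale, from 0) of 8 member probe sets on each array (points) in the 4 groups (horizontal axis), with group mean and SD (bars, n = 3). Ndufs8, Ndufb2, Ndufc1 and Ndufa13 are lower in both fasted groups, Uqcr10 and Cox7a1 are lowest in PPARα-null fasted mice, and Cox7a2l overlaps between groups as deposited.

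In the catalytic head of ATP synthase 0 of 8 probe sets were called in PPARα-null and 1 in wild-type mice. Atp5b, the catalytic beta subunit, had 3514, 3573 and 3506 in PPARα-null fasted, 3370, 3618 and 3520 in wild-type fasted, 4557, 4240 and 4337 in PPARα-null fed and 4172, 4385 and 4616 in wild-type fed mice. Atp5a1, the alpha subunit, was called in wild-type mice by 1 of 3 probe sets. That probe set had 12.3, 13.8 and 11.1 in wild-type fasted against 20.1, 36.9 and 22.9 in wild-type fed mice (−0.74 ± 0.19, adjusted p = 0.0128), at or near the limit of 20. The wild-type fed group carried it over that limit and also enters the contrast. Nothing is read from this call, although the counts given here include it. The 2 brighter probe sets of Atp5a1, at 1586 to 3653 in wild-type fasted and 2227 to 4437 in wild-type fed mice, were not called. Of the proton-carrying c ring, Atp5g3 had 4433 to 4917 in PPARα-null fasted, 4463 to 4801 in wild-type fasted, 5468 to 5542 in PPARα-null fed and 5539 to 5731 in wild-type fed mice, and none of the 3 genes of the ring was called.

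The other called falls of ATP synthase lay in small subunits of its membrane part, Atp5k (subunit e) and Atp5j2 (subunit f), of which subunit e takes part in the pairing of ATP synthases. One Atp5k probe set had 654.1, 741.2 and 657.2 in PPARα-null fasted against 1309, 1447 and 1366 in PPARα-null fed mice (−0.69 ± 0.11, adjusted p = 0.000183). Another Atp5k probe set had 711.2, 769.3 and 779.2 in wild-type fasted against 1215, 1327 and 1220 in wild-type fed mice (−0.42 ± 0.08, adjusted p = 0.00437). No fasted array reached a fed one in either probe set. Each probe set was called in 1 genotype only, with no call in the interaction, and the third Atp5k probe set was called in neither. One Atp5j2 probe set had 1778, 2142 and 2149 in PPARα-null fasted against 3466, 3622 and 3628 in PPARα-null fed mice (−0.51 ± 0.10, adjusted p = 0.00109), and its other probe set was not called. The 4 genes of the peripheral stalk were not called in either genotype.

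Falls were called in both genotypes for 7 probe sets of 4 genes (Ndufb2, Ndufc1, Ndufs8 and Uqcr10), in PPARα-null mice alone for 15, in wild-type mice alone for 2, and 109 probe sets had no call in either. Among all probe sets, too, more fell in PPARα-null than in wild-type mice (23.6% against 7.43%). The same split was not counted over all probe sets, so it is not read as a trait of the members. Exocrine pancreas signal also differed between fed and fasted arrays, and its part in the falls of the members was not tested. Of 12 tested pancreas probe sets, 8 rose upon fasting in PPARα-null and 12 in wild-type mice, beside rises in 18.6% and 10.0% of all probe sets. Leaving out replicates 1 and 3 of the PPARα-null fasted group, which carry that signal, leaves 1 array there, so the calls of that fit are not counted. The members' median change upon fasting in PPARα-null mice was then −0.07. Calls lost in that fit were those of Cox7a1, Ndufs5, Ndufs7, some Ndufs8 probe sets and the second probe sets of Ndufb2 and Ndufc1. With 1 array in the group a lost call says little. With the logarithm of the pancreas sum as a covariate, 18 of the 22 calls in PPARα-null mice and 1 of the 10 in wild-type mice remained. In wild-type mice every fasted array has this signal, so that it and feeding state cannot be told apart there. In PPARα-null mice only fasted replicate 2 lacks it (1162, against 34610 and 36140 in replicates 1 and 3). The covariate thus rests there largely on 1 array, and little is read from the calls that remained. Markers of lymphocytes (10 probe sets) summed, as deposited and thus with the common drop, to 1917 to 2699 in PPARα-null fasted, 3620 to 4433 in wild-type fasted, 4530 to 5148 in PPARα-null fed and 5307 to 5738 in wild-type fed mice. Relative to the common shift 7 of the 10 fell in PPARα-null and 2 in wild-type mice, beside falls in 23.6% and 7.43% of all probe sets. The sum is mostly that of Jchain, an immunoglobulin chain of plasma cells, which changed by −0.75 in PPARα-null mice and had −0.06, without a call, in wild-type mice. Markers of proliferating crypt cells (15 probe sets) summed, as deposited, to 1322 to 1456 in PPARα-null fasted, 1494 to 1901 in wild-type fasted, 2494 to 2770 in PPARα-null fed and 2373 to 2637 in wild-type fed mice. Relative to the shift 6 of the 9 tested crypt probe sets fell in PPARα-null and 1 in wild-type mice, beside the same shares of all probe sets. The part of either cell type in the falls of the members was not tested.

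Loss of PPARα was called for no member in fed mice and for 2 in fasted mice. In fasted mice 0 member probe sets rose and 2 of 133 fell (1.5%), the first Uqcr10 probe set and Cox7a1, against 30.8% of all 9217 probe sets (14.0% rises and 16.8% falls) and 14.2% of those with a mean over 1000. In fed mice 0 of 135 were called by limma, with 3 at an unadjusted p under 0.05, against 2.66% of all 9560 probe sets and 1.95% of those with a mean over 1000. The median difference of the members, PPARα-null minus wild-type, was −0.03 in fasted and 0.01 in fed mice. For 104 of 133 member probe sets (78.2%) in fasted mice and 120 of 135 (88.9%) in fed mice the 95% interval of the difference stayed within 1.3-fold, against 26.6% and 48.3% of all probe sets tested. At a mean over 1000, where the median SE was 0.09 for members and for all probe sets, the shares were 90.4% and 96.4% of the members against 61.9% and 81.8% of all.

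The difference in the first Uqcr10 probe set between PPARα-null fasted and wild-type fasted mice was −0.88 ± 0.12 (adjusted p = 7.49e-05), a fold of 0.544, and that in Cox7a1 was −0.48 ± 0.10 (adjusted p = 0.00167), a fold of 0.719. Both probe sets were without overlap between the genotypes when fasted. In fed mice the PPARα-null and wild-type arrays overlapped in both. Leaving out replicates 1 and 3 of the PPARα-null fasted group leaves 1 array there, so calls of that fit are not read.

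The interaction asks whether fasting changed a gene differently in PPARα-null and in wild-type mice, as the change in PPARα-null minus that in wild-type mice. It was called at an adjusted p under 0.05 for 3 of 135 member probe sets (2.22%), against 23.8% of all 9874 probe sets (9.22% above and 14.6% below 0) and 12.5% of those with a mean over 1000. All 3 were below 0: the first Uqcr10 probe set (−0.98 ± 0.16, adjusted p = 0.00114), Cox7a1 (−0.49 ± 0.13, adjusted p = 0.0201) and 1 of 2 tested probe sets of Ndufab1 (−0.71 ± 0.17, adjusted p = 0.0111). Ndufab1, the mitochondrial acyl carrier protein that is also a complex I subunit, had in this probe set 10.45, 10.66 and 8.798 in PPARα-null fasted, 13.97, 12.85 and 15.73 in wild-type fasted, 23.39, 17.88 and 19.87 in PPARα-null fed and 17.76, 15.9 and 19.31 in wild-type fed mice. The group mean was above 20 only in PPARα-null fed mice (20.4), so the probe set was tested only through the group where it is highest, and the same value enters the interaction. Nothing is read from this call. The brighter Ndufab1 probe set, at 918.5 to 1034 in PPARα-null fasted, 1002 to 1125 in wild-type fasted, 1318 to 1397 in PPARα-null fed and 1299 to 1388 in wild-type fed mice, was not called. Without replicates 1 and 3 of the PPARα-null fasted group 1 array is left there. Cox7a1 and Ndufab1 lost their calls in that fit, where a lost call says little.

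**Figure D4:**
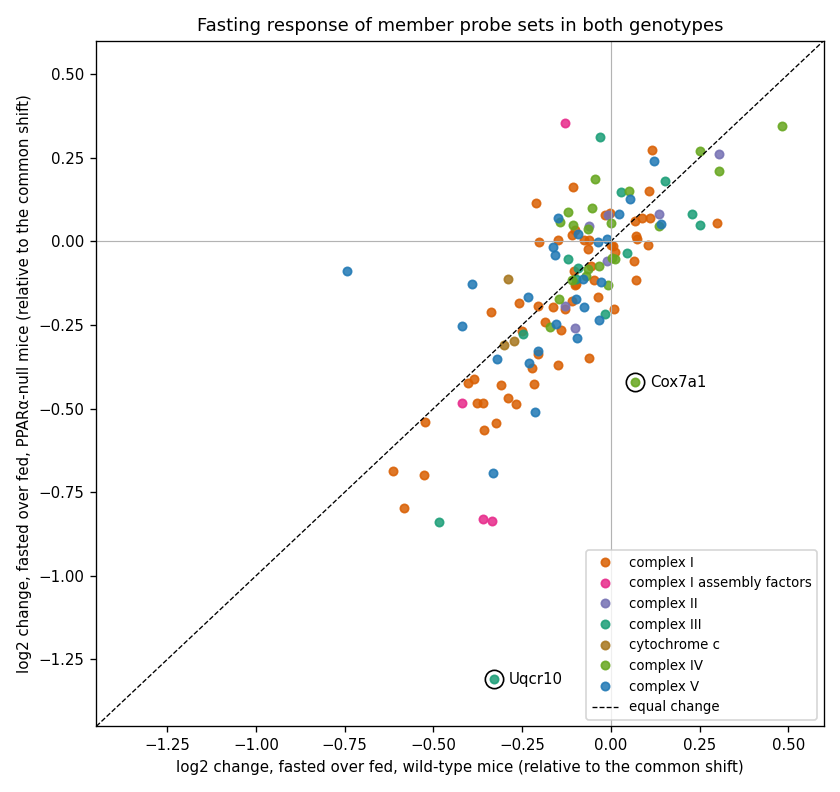
Log2 change upon fasting of the 134 tested member probe sets in wild-type mice (horizontal axis) and in PPARα-null mice (vertical axis), both relative to the common shift and coloured by complex. The dashed line marks equal change, and circles mark the called interactions. The first Uqcr10 probe set at −0.33 and −1.31 and Cox7a1 at 0.07 and −0.42 lie below the line, and the dim Ndufab1 probe set was not tested upon fasting.

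Other genes of mitochondrial energy metabolism were taken from written lists. TCA cycle enzymes (21 probe sets, 13 genes) feed NADH and succinate to the chain. Of their probe sets 1 rose and 1 fell upon fasting in PPARα-null mice and 0 and 0 in wild-type mice. Of all probe sets 42.2% were called in PPARα-null and 17.5% in wild-type mice. The fall was that of Ogdh, the 2-oxoglutarate dehydrogenase, with 780.5, 667.8 and 683.0 in PPARα-null fasted, 1048, 1331 and 1213 in wild-type fasted, 1521, 1583 and 1713 in PPARα-null fed and 1489, 1622 and 1648 in wild-type fed mice. The PPARα-null fasted arrays lie below all others, and the change of −0.86 ± 0.10 (adjusted p = 1.82e-05) differed from that in wild-type mice (interaction −0.77, adjusted p = 0.00261). The rise was that of a dim probe set of Dlst, averaging 43.26 in PPARα-null fasted, 29.08 in wild-type fasted, 36.37 in PPARα-null fed and 40.79 in wild-type fed mice. It changed by 0.56 ± 0.11 relative to the shift (adjusted p = 0.000773), without a call as deposited. Its interaction was 0.73 (adjusted p = 0.00459), and the brighter Dlst probe set was not called.

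Genes for other electron entry points and proton leak (18 probe sets, 9 genes) had 8 rises and 0 falls in PPARα-null mice and 1 rise and 0 falls in wild-type mice, beside rises in 18.6% and 10.0% of all probe sets. As deposited only 2 of the 8 rises, Prodh and 1 Slc25a5 probe set, were called, so that the other 6 rest on the common shift. Prodh, the proline dehydrogenase that passes electrons to ubiquinone, had 330.6, 338.5 and 295.2 in PPARα-null fasted, 166.4, 63.95 and 80.82 in wild-type fasted, 80.67, 66.31 and 100.1 in PPARα-null fed and 73.02, 70.9 and 62.41 in wild-type fed mice. It rose in PPARα-null mice by 2.30 ± 0.27 (adjusted p = 1.48e-05), and among wild-type fasted arrays replicate 1 stands above the others. Etfb, of the flavoprotein that takes electrons from fatty acid oxidation, had 552.1, 493.0 and 530.7 in PPARα-null fasted, 625.5, 634.2 and 677.0 in wild-type fasted, 463.4, 405.0 and 507.1 in PPARα-null fed and 473.8, 689.1 and 599.4 in wild-type fed mice, with overlap in both genotypes. Relative to the shift it rose in both (0.52 ± 0.13 in PPARα-null, adjusted p = 0.00402, and 0.47 ± 0.13 in wild-type mice, adjusted p = 0.0191). As deposited the changes were 0.20 and 0.15, without a call. The call in PPARα-null mice was lost under 3 of 29 alternatives, among them with the pancreas covariate. That in wild-type mice was lost under 4 of 29, among them without fed replicate 1 and without fasted replicate 3. Of the 8 rises, 5 were probe sets of Slc25a5, the ADP/ATP carrier that exchanges the product of ATP synthase. One of them had 734.3, 942.7 and 653.8 in PPARα-null fasted, 495.3, 518.2 and 540.9 in wild-type fasted, 518.7, 545.4 and 520.3 in PPARα-null fed and 539.4, 483.2 and 515.0 in wild-type fed mice, the PPARα-null fasted arrays above all others. This is the probe set whose rise was also called as deposited.

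Assembly factors of the chain (30 probe sets, 24 genes, among them the Ndufaf genes already given) had 14 falls and 1 rise in PPARα-null and 6 falls and 2 rises in wild-type mice, beside 42.2% and 17.5% of all probe sets called (23.6% and 7.43% falls). In fasted mice 8 of 29 were lower and 1 higher in PPARα-null than in wild-type mice, beside 16.8% lower and 14.0% higher among all probe sets. Surf1, an assembly factor of complex IV, had 109.6, 130 and 113.8 in PPARα-null fasted, 222.9, 175.2 and 190.3 in wild-type fasted, 240.3, 275.7 and 261.5 in PPARα-null fed and 186.2, 242.5 and 248.5 in wild-type fed mice, with an interaction of −0.94 ± 0.18 (adjusted p = 0.00268). Coa7, which acts on the same complex, had an interaction of the opposite sign, with 57.43, 70.34 and 59.26 in PPARα-null fasted, 28.12, 33.36 and 26.37 in wild-type fasted, 54.76, 49.6 and 50.46 in PPARα-null fed and 48.47, 55.91 and 61.18 in wild-type fed mice (interaction 1.18 ± 0.17, adjusted p = 0.000382). The wild-type fasted arrays of Coa7 lie below all others. Hccs, which attaches heme to cytochrome c, fell in both genotypes in 1 of 2 probe sets (−0.73 ± 0.10, adjusted p = 8.13e-05 in PPARα-null, and −0.62 ± 0.10, adjusted p = 0.00165 in wild-type mice).

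Regulators of mitochondrial biogenesis (18 probe sets, 12 genes) had 7 falls and 2 rises in PPARα-null mice and 1 fall and 2 rises in wild-type mice, beside 42.2% and 17.5% of all probe sets called (23.6% and 7.43% falls). Of the 7 falls, 3 were probe sets of 1 gene, Ppargc1a. Of 4 tested probe sets of Ppargc1a, the coactivator PGC-1α that acts with NRF1 and ERR on respiratory chain genes, 3 fell in PPARα-null mice and differed in the interaction, and the fourth was called in neither. One of the 3 had 29.48, 34.05 and 24.56 in PPARα-null fasted, 61.86, 85.57 and 90.99 in wild-type fasted, 71.69, 76.37 and 74.61 in PPARα-null fed and 80.88, 72.77 and 74.29 in wild-type fed mice. The PPARα-null fasted arrays lie apart below the others, with a change of −1.03 ± 0.14 (adjusted p = 6.22e-05) and an interaction with adjusted p = 0.000481. In fasted mice these 3 probe sets were lower in PPARα-null than in wild-type mice (log2 differences of −1.43 to −0.77). Whether the members follow Ppargc1a was not tested. The fall of 1 of the 3 was lost without PPARα-null fed replicate 2, without PPARα-null fasted replicate 3 and with the pancreas covariate. Its genotype difference was lost without PPARα-null fasted replicate 3 and without wild-type fasted replicate 2 or 3. Leaving out PPARα-null fasted replicates 1 and 3 together leaves 1 array there, and the interactions of this and another probe set did not hold in that fit. The probe set printed here kept its calls. Genes of the outer membrane, import and chaperones (34 probe sets, 16 genes) had 4 rises and 4 falls in PPARα-null and 0 rises and 1 fall in wild-type mice, beside 42.2% and 17.5% of all probe sets called. Only 1 of the 13 mitochondrially encoded subunits had a probe set with its symbol, and it was not called.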

How the data were processed

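Small intestine RNA was hybridised to 12 Affymetrix mouse 430A arrays. The deposited values are intensities on the linear scale that the authors made with GCRMA (version 2.20 per the labels), which corrects background, quantile-normalizes and summarises probes, with no depth to give. Genes were named through GEO's platform annotation. Here the values were taken to log2, and a model with the 4 group means was fitted by limma 3.58.1 (lmFit and eBayes) in R 4.3.3. After the study's methods, a change needs an unadjusted p under 0.01, a fold over 1.3 and an average above 20 in the wild-type fed group (in either group for genotype contrasts). The interaction needs a Benjamini-Hochberg adjusted p under 0.05 and a mean over 20 in any group, and adjustment ran over all probe sets kept. Changes upon fasting had the common shift of −0.32 taken off. The fit was tested on simulated data. Named are, per contrast and complex, up to 3 called rises and falls and the member with the highest mean. Named too are Sdha to Sdhd, Cyc1, Cycs, the tissue isoforms of complex IV, called interactions, and some called genes of the lists. Members and lists were chosen with earlier results of these data known. Motifs were searched with Python 3.11.15. Alternatives were other scalings, level limits, thresholds, variance models, choices of probe sets, a replicate block and leaving out each array. Chosen after seeing the data were the pancreas covariate and leaving out PPARα-null fasted replicates 1 and 3 together. The last leaves 1 array in that group, so a call lost under it says little. Same-numbered arrays of different groups did not deviate together (correlations of −0.20 to 0.23), so numbers pair nothing.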

Additional observations from a re-analysis of the deposited data

Results flagged for a closer look

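In 3 probe sets the results differ between the genotypes by a test of the difference itself, the interaction (change upon fasting in PPARα-null minus that in wild-type mice, limma). The first Uqcr10 probe set stood at −0.98 ± 0.16 (SE, adjusted p = 0.00114), with a change of −1.31 in PPARα-null and −0.33 in wild-type mice, and the brightest of its 3 probe sets was not called. Cox7a1 stood at −0.49 ± 0.13 (adjusted p = 0.0201), with −0.42 in PPARα-null and 0.07 in wild-type mice. The dim Ndufab1 probe set stood at −0.71 ± 0.17 (adjusted p = 0.0111), with values between 8.798 and 23.39. It passed the limit of 20 only through the PPARα-null fed group, where it is highest, and the same value enters the interaction, so nothing is read from it. Leaving out replicates 1 and 3 of the PPARα-null fasted group, the 2 arrays with most exocrine pancreas signal, leaves 1 array there. Cox7a1 and Ndufab1 lost their calls in that fit, where a lost call says little. The causes were not tested. No rule was used to flag single arrays that stand apart within a group of 3, although each array was left out in turn.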

How the results depend on the processing

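Under other scalings 2 to 3 members were called for PPARα loss in fasted mice, 0 in fed mice and 3 in the interaction, whereas counts upon fasting follow the scaling and the choice of probe sets. Called members upon fasting in PPARα-null and wild-type mice numbered 72 and 77 as deposited, 7 and 2 at a level over 1000, 10 and 2 with 1 probe set per gene and 14 and 6 without probe sets ending in _s_at or _x_at. The counts as deposited hold the common drop, with medians of −0.33 and −0.28 over all probe sets. At a level over 1000, 23.1% and 8.82% of all were called. Shares of all probe sets are not given for the other alternatives, so these counts show only how the calls move. In wild-type mice they were 20 after quantile normalization, 17 after cyclic loess, 19 with no minimum fold and 2 with the pancreas covariate (an alternative chosen after seeing the data). For PPARα loss in fasted mice the count was 0 at a level over 1000, 1 with 1 probe set per gene and 4 with the pancreas covariate. For the interaction it was 0 at a level over 1000 and 1 with 1 probe set per gene. Leaving out PPARα-null fasted replicates 1 and 3 together (also chosen after seeing the data) leaves 1 array in that group, so its counts are not given. Leaving out 1 array gave 19 to 25 calls upon fasting in PPARα-null mice, 7 to 16 in wild-type mice (16 without wild-type fed replicate 1), 2 to 4 for PPARα loss in fasted mice (4 without PPARα-null fasted replicate 2 or wild-type fasted replicate 3), 0 to 1 in fed mice (1 without PPARα-null fed replicate 3, and likewise without replicate 1 of the wild-type fed group) and 2 to 5 for the interaction (5 without wild-type fed replicate 1). With the replicate block the counts were 22, 11, 2, 0 and 3 in that order, and it changed 1 call.

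Medians upon fasting as deposited were −0.41, −0.45, −0.97, −0.27, −0.37, −0.61, −0.28 and −0.44 in PPARα-null and −0.41, −0.43, −0.66, −0.33, −0.35, −0.61, −0.35 and −0.44 in wild-type mice (all members, complex I, its assembly factors, complexes II and III, cytochrome c, complexes IV and V). After quantile normalization they moved to −0.19 (all members), −0.18 (complex III), −0.074 (IV) and −0.23 (V) in PPARα-null and to −0.18 (all), −0.10 (II), −0.16 (IV) and −0.21 (V) in wild-type mice. Cyclic loess moved complex IV to −0.025 in PPARα-null and −0.11 in wild-type mice. With each array centred on its median they were −0.035 (all) and 0.10 (complex IV) in PPARα-null mice, 0.035 in fasted and −0.052 in fed mice for complex IV under PPARα loss, and 0.05 (all), 0.037 (II), 0.062 (IV) and 0.077 (V) in the interaction. Without PPARα-null fasted replicates 1 and 3, cytochrome c was at −0.057 and complex IV at −0.002 upon fasting, the assembly factors at −0.10 and cytochrome c at 0.091 under PPARα loss in fasted mice, and complex II at 0.029, cytochrome c at 0.23 and complex IV at 0.025 in the interaction. The pancreas covariate moved the assembly factors in wild-type mice to −0.17 and cytochrome c in PPARα-null mice to −0.12. Leaving out 1 array moved complex II to −0.088 to 0.017, complex III to −0.155 to −0.01 and complex IV to −0.052 to −0.002 in wild-type mice, complex IV to 0 to 0.051 in PPARα-null mice, the assembly factors to 0.029 to 0.189 and complex IV to −0.025 to 0.026 under PPARα loss in fed mice, complex IV to −0.016 to 0.032 in fasted mice, and complexes II and IV to −0.098 to 0.041 and −0.044 to 0.015 in the interaction.

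Of single probe sets, Cox7a1 upon fasting in wild-type mice was at −0.25 as deposited, and the third Cycs probe set upon fasting in PPARα-null mice at 0.13 without replicates 1 and 3 of the fasted group and at 0.0019 with the pancreas covariate. The third Uqcr10 probe set was at −0.0029 as deposited in PPARα-null mice and, leaving out 1 array, at −0.19 to 0.13 in wild-type mice. Single probe sets followed under the alternatives include a few of the lists that are not named above. Over these and all alternatives, 2323 values kept direction and call, 96 lost the call, 12 gained one and 6 turned sign. With 3 arrays per group, probe sets near 20 and changes near 1.3-fold are the least certain, and the causes of these shifts were not tested.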
